A study of Mus musculus with 40 samples.

Results

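Schwann cells wrap the axons of peripheral nerves, and the larynx, esophagus and trachea are all supplied by such nerves. The 8 genes described here are Erbb3, Gfra3, Cdh19, Fabp7, Pmp22, Mbp, Mag and Prx. They are known from that lineage, from its precursors to its myelin, but several are also made by other cells. They were taken by name from the 53647 gene IDs of the count tables, and all 8 were among the 36495 genes kept for testing, each with 2 or more libraries at a normalized count of 1 or more. RNA was sequenced from untreated wild type FVB/N mice in 40 libraries, 2 for each of 20 groups of tissue, age and kind of library. The larynx (called primitive laryngopharynx at E10.5) had 16 libraries, from 5 embryonic ages (E10.5 to E18.5, with E11.5, E13.5 and also E15.5 between them), from P0 and from adults of 6 to 8 weeks, while esophagus and trachea had 12 each, from the 5 embryonic ages alone. Embryonic libraries held tissue of 10 animals pooled, or of 20 at E15.5, while whether tissue was pooled is not given for P0 and adult.

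The sample titles fall into 2 kinds. In 10 libraries, called index libraries here, the title ends in a sequencing index, and in 30 it ends in a short code. The titles of all 6 index larynx libraries name the tissue vocal fold, and those of the short-code ones larynx or laryngopharynx, so in the larynx the kind of library and the named dissection cannot be told apart. P0 and adult larynx exist only as index libraries, E15.5 as both kinds, and the other 4 ages only as short-code libraries. Steps in age were therefore compared within 1 kind, and a comparison of E18.5 with P0 was not made, since age and kind of library cannot be told apart there. Values are normalized counts, that is, rounded expected counts divided by a median-ratio size factor of the library. In bulk tissue, fewer cells of a type and less RNA per cell cannot be told apart.

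As background, neural crest cells that join growing nerves become Schwann cell precursors, which depend on neuregulin from axons, received by the ErbB3 and ErbB2 receptors. Precursors turn into immature Schwann cells before birth, and those that settle on large axons switch on the transcription factor Egr2 and, with Sox10, the genes of compact myelin. PMP22 and MBP are proteins of compact myelin, while MAG lies in the membrane next to the axon and periaxin (Prx) at the outer surface of the fibre.

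Index libraries held 22553149 to 35831491 expected counts and short-code libraries 3286403 to 26378626, with 0.05% to 0.196% of counts in mitochondrial rRNA in index libraries and 9.3% to 32.2% in short-code libraries. The Schwann cell markers Sox10 (20 to 447 counts) and S100b (1 to 1315 counts) had counts in all 40 libraries, so the label of a Schwann cell lineage signal was met by its markers throughout. Defining markers of oligodendrocytes, the myelin cells of the central nervous system, were low, with at most 13 counts of Mog, 35 of Mobp and 10 of Opalin in any library.

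Some libraries went against their labels or stood apart from others of their tissue and age. E15.5 trachea short-code library 1 held little of the epithelial markers, with 13.0 normalized counts of Epcam against 686 to 2238 in the other 3 E15.5 trachea libraries, and it held 213 of Olig1 and 43.8 of Olig2, transcription factors of the oligodendrocyte lineage and spinal cord, against 0 to 4.75 and 0 to 12.7. The neuronal tubulin Tubb3 was at 3457 in it, against 118 to 452. Index library 2 of the E15.5 esophagus held 82300 normalized counts of the basal keratin Krt5, against 2366 to 7446 in the other 3 E15.5 esophagus libraries. Where leaving out 1 of these libraries changed the call of a member, that is given beside the result. For the esophagus library this was tried only in the comparison of kinds of library and in the splines. Correlations over group means and counts over gene lists hold all 40 libraries.

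Promoter sequence was taken for the members that the reference table covers, from RefSeq on GRCm38.p6, as 250 bases before to 50 after a transcript's start; 4 of the 8 members had an entry (Pmp22, Mag, Prx and Fabp7). They are shown because Mag, Prx and Pmp22 are myelin genes and Fabp7 ran the other way with age. Capitals mark the SOX core motif, searched as ACAAAG or ACAATG on both strands, which was found in 28.6% of all 32851 promoters of this length, and the EGR core motif, searched as GTGGGCG or GTGGGAG on both strands, found in 16.8%. The first Mag window, chr7:30914814-30915113 on the minus strand, held 1 SOX core match that begins 126 bases before the start. The windows of Prx (chr7:27499074-27499373, plus strand), Fabp7 (chr10:57784673-57784972, plus strand) and the first of Pmp22 (chr11:63128732-63129031, plus strand) held no match to either motif, which says only that these letters are absent from these windows.
Mag: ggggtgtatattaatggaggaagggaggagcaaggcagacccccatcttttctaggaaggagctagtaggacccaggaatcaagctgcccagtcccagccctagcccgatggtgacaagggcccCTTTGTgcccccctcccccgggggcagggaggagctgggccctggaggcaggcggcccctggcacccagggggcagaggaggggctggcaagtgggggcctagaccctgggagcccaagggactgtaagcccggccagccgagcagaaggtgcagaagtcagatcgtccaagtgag
Prx: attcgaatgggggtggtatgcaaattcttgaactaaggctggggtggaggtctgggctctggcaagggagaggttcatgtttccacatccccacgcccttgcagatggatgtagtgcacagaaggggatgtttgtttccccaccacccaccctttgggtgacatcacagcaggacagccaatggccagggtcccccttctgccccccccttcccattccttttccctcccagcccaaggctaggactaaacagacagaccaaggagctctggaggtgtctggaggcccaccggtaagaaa
Pmp22: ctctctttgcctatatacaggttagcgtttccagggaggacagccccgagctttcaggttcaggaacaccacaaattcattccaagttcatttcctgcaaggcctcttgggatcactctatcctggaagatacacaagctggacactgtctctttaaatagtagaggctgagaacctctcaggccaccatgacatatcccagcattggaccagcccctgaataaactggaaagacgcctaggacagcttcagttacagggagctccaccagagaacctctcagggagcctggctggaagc
Fabp7: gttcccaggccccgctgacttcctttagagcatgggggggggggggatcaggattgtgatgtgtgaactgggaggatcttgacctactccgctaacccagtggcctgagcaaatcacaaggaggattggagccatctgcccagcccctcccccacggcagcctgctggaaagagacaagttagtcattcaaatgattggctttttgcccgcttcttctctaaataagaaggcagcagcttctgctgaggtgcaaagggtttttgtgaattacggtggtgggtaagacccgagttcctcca

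**Figure D1:**
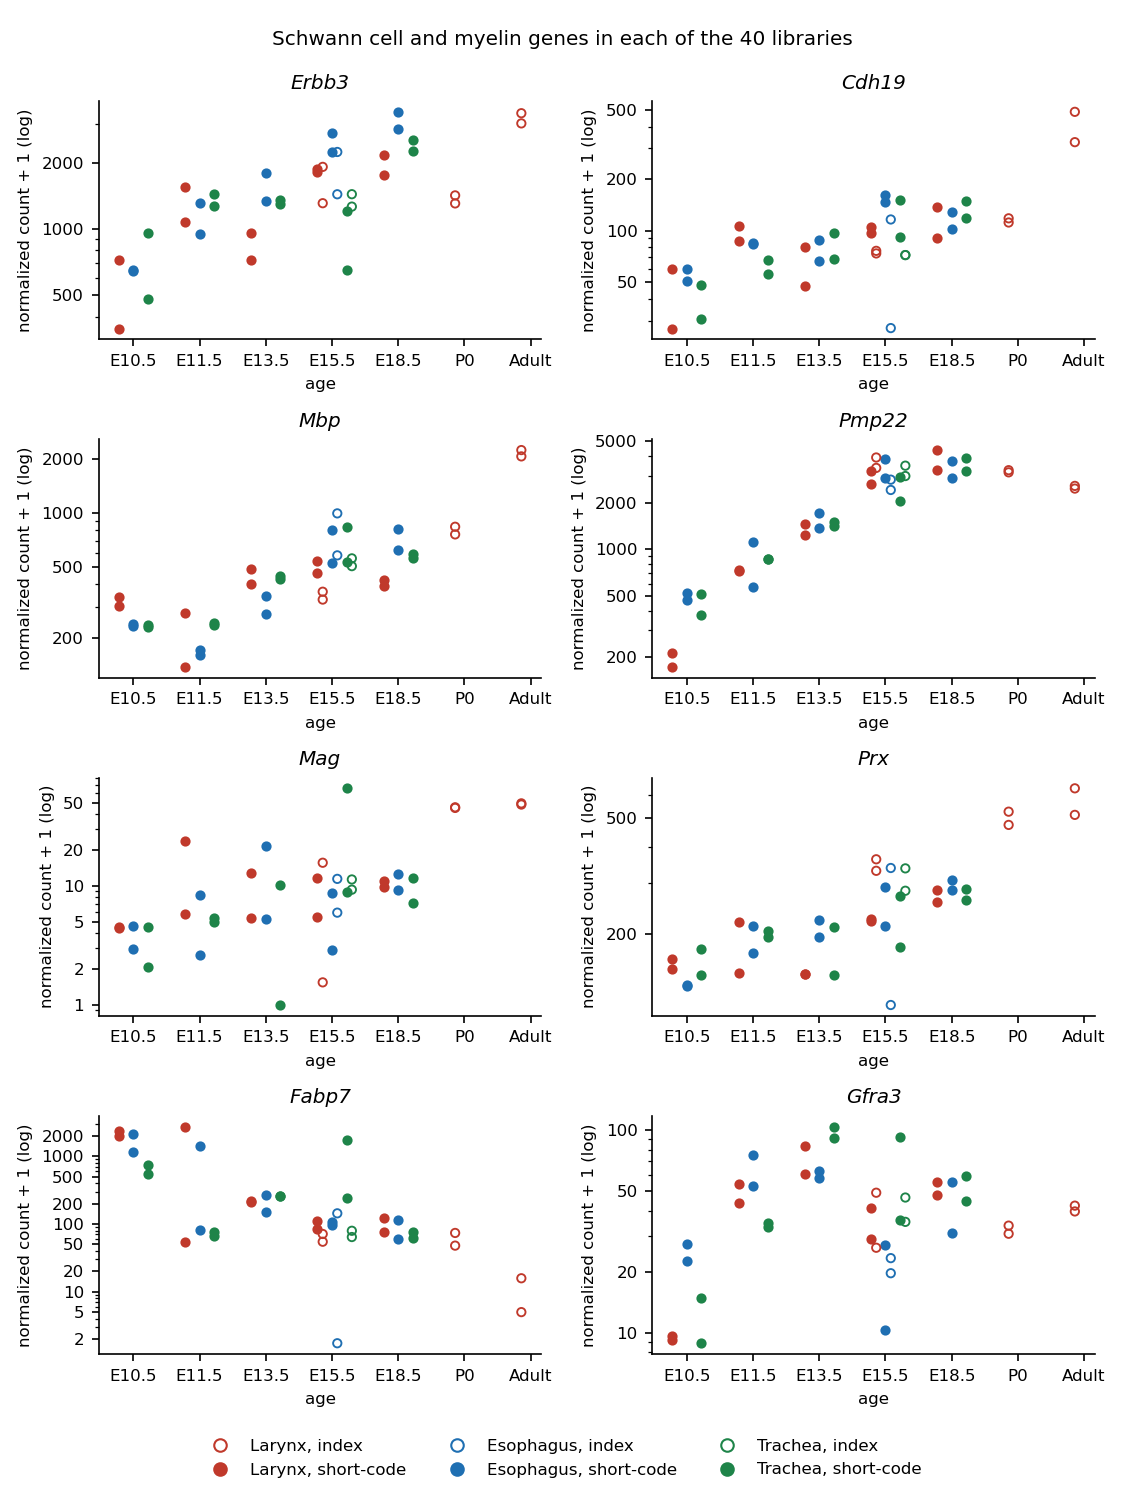
Normalized count plus 1 on a log axis for each of the 8 genes against age, with 1 point per library, colour for tissue and filled points for short-code, open points for index libraries. Pmp22 is higher at E13.5 than at E10.5 and at E18.5 than at E13.5 in all 3 tissues, Mbp and Cdh19 are highest in the 2 adult larynx libraries, and Fabp7 is highest at E10.5 and in 3 later libraries.

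Across the steps in age, every change of a member that passed the test was a rise, though Fabp7 was called lower in the larynx at E13.5 over E10.5 in 6 of 9 alternatives and 0 of 4 leave-one-out fits (adjusted p = 0.0184 with DESeq2) and in the esophagus in 1 (adjusted p = 0.049 without the 3 libraries rich in olfactory receptor counts). edgeR's quasi-likelihood test was used with Benjamini-Hochberg adjustment over 36495 genes, and a gene was called at an adjusted p under 0.05. In the larynx, 2 of 8 members were higher at E13.5 than at E10.5 (8.29% of all genes were higher) and 0 were lower (7.18%), and 2 of 8 were higher at E18.5 than at E13.5 (5.91% higher) and 0 lower (3.52%). In index larynx libraries 1 of 8 was higher at P0 than at E15.5 (1.28% higher) and 0 lower (0.493%), and 3 of 8 were higher in adults than at P0 (3.44% higher) and 0 lower (2.57%). In the esophagus 2 of 8 were higher at E13.5 than at E10.5 (5.25% higher) and 0 lower (3.87%), and 2 of 8 higher at E18.5 than at E13.5 (6.68% higher) and 0 lower (4.34%). In the trachea 3 of 8 were higher at E13.5 than at E10.5 (4.52% higher) and 0 lower (5.78%), and 1 of 8 higher at E18.5 than at E13.5 (6.9% higher) and 0 lower (4.97%). With 8 members, 1 gene is a large share, so the members' counts can be read only roughly against these percentages. For the counts of 0 members lower, the members at an unadjusted p under 0.05 in either direction were 2 to 5 per step.

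**Figure D2:**
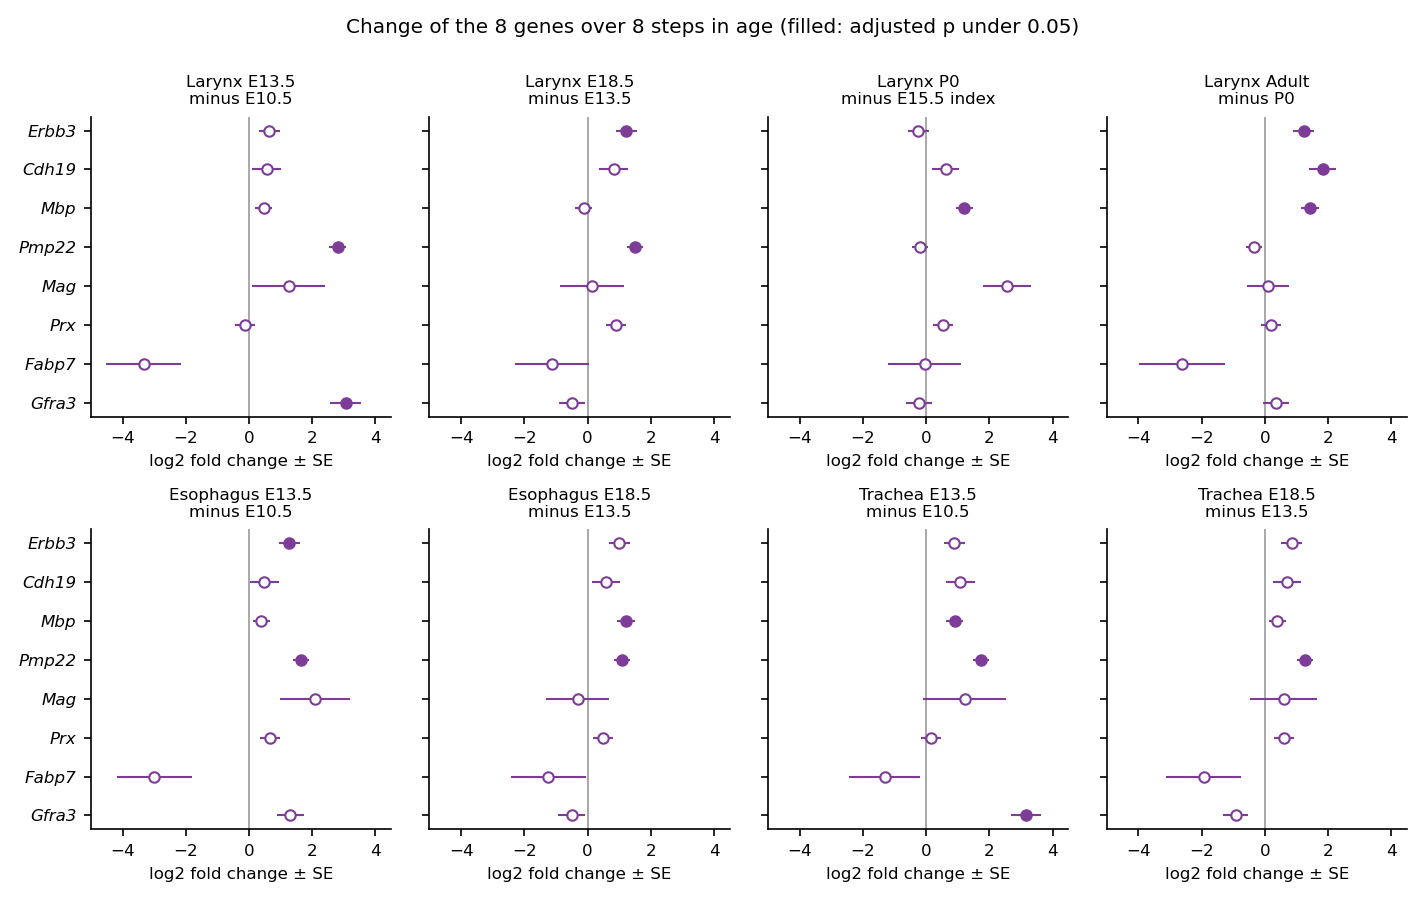
Log2 fold change of the 8 genes (rows) in 8 steps in age (panels), as the later age over the earlier, with its standard error; filled points have an adjusted p under 0.05. All 16 filled points lie to the right of 0, and Fabp7 lies to the left of 0 in every panel without a filled point.

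Erbb3 (chromosome 10, 128403392 to 128425811, minus strand, GRCm39) encodes the neuregulin receptor that Schwann cell precursors need to survive, and it is also made by many epithelia. In larynx short-code libraries it had 352 and 721 normalized counts at E10.5, 1557 and 1076 at E11.5, 956 and 725 at E13.5, 1885 and 1822 at E15.5 and 1762 and 2177 at E18.5. In index larynx libraries it had 1921 and 1312 at E15.5, 1424 and 1309 at P0, and 3031 and 3373 in adults. The adult libraries were the highest of the larynx, and the E10.5 libraries the lowest. Erbb3 rose by 1.23 on the log2 scale (SE 0.33, adjusted p = 0.0167) at E18.5 over E13.5, by 1.23 (SE 0.33, adjusted p = 0.0248) in adults over P0, and in the esophagus by 1.28 (SE 0.33, adjusted p = 0.0145) at E13.5 over E10.5. These calls were lost in 3, 4 and 3 of the 4 leave-one-out fits of their comparisons. Such a fit leaves 1 library in a group, and calls over all genes fell as well. The changes of Erbb3 ran from 1.042 to 1.443, 1.151 to 1.305 and 1.046 to 1.479. The esophagus call was also lost with only esophagus libraries in the fit (adjusted p = 0.0924). In the esophagus the E18.5 libraries reached 2861 and 3422 normalized counts, against 1340 and 1807 at E13.5, where the change of 1.00 (SE 0.33) had an adjusted p of 0.0505, and of 0.0354 without E15.5 trachea short-code library 1.

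Erbb3 and most of the other members were high where the epithelial markers were high. Over the 20 group means, its log2 level had r = 0.856 with the summed level of 11 epithelial markers, a description of groups that share their libraries and depth. This was not particular to Erbb3, since r was 0.821 for Mbp, 0.807 for Pmp22, 0.784 for Prx, 0.662 for Cdh19, 0.464 for Mag, 0.0351 for Gfra3 and -0.858 for Fabp7. The genes most like Erbb3 were Prrg4, Lama3 (a laminin chain of epithelial basement membranes) and Rab27a (r = 0.903 to 0.933, 15486 genes compared). The epithelial sum ran from 14820 to 71010 normalized counts in the 6 E18.5 libraries, against 1992 to 3439 in the 6 E10.5 libraries. E15.5 trachea short-code library 1 had the lowest epithelial sum of all 40, at 412, with 651 normalized counts of Erbb3 against 1215 in library 2. At the same steps, 3 of 11 epithelial markers were higher in the larynx at E18.5 than at E13.5 and 1 of 11 in adults than at P0. What part of the Erbb3 signal, or of the other members, came from epithelium was not tested. Index library 2 of the E15.5 esophagus went the other way, with the highest epithelial sum, 161200, and 1441 normalized counts of Erbb3.

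**Figure D3:**
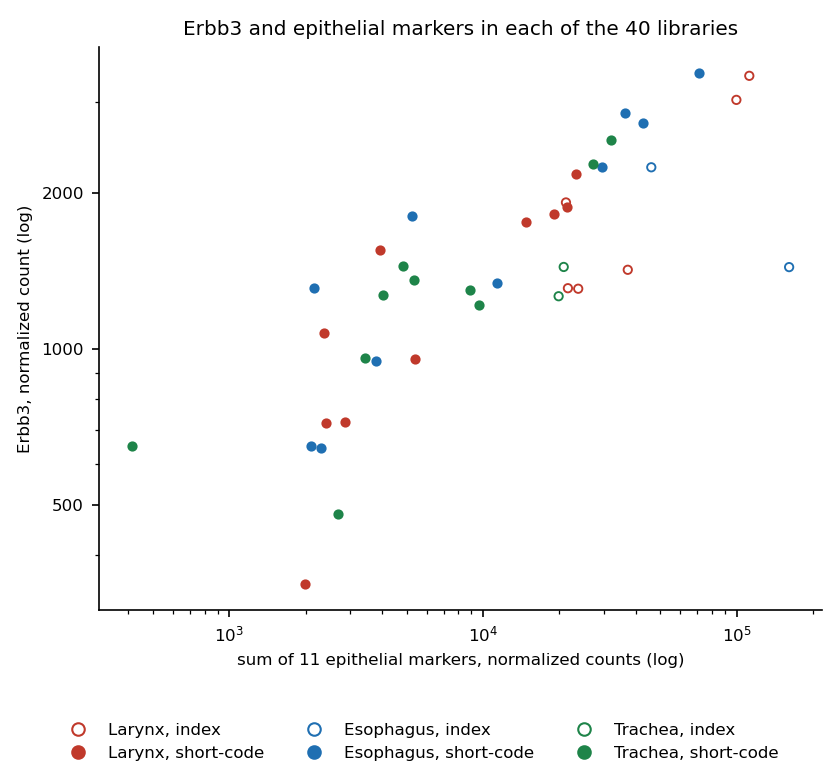
Erbb3 normalized count against the summed normalized count of 11 epithelial markers, both on log axes, with 1 point per library. Erbb3 and the epithelial sum run together in most libraries; the point at 412 on the horizontal axis is E15.5 trachea short-code library 1 and the point at 161200 is index library 2 of the E15.5 esophagus.

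The other genes of the neuregulin group moved unevenly. Of 8 genes for neuregulins and their receptors, 3 were higher in the larynx at E13.5 than at E10.5 and 0 lower, with a median log2 change of 1.17 against -0.12 over all expressed genes. Erbb2, the partner of ErbB3, was at 2734 and 3387 normalized counts in the larynx at E13.5, against 811 and 839.7 at E10.5, and rose by 1.89 (adjusted p = 1.1e-05), then fell by 0.97 at E18.5 against E13.5 (adjusted p = 0.0141) while Erbb3 rose. Erbb4 fell by 2.69 at E18.5 against E13.5 (adjusted p = 0.0411). Nrg1, the axonal ligand, had 64.2 and 73.2 normalized counts in the larynx at E18.5, against 147 and 107 at E13.5 (adjusted p = 0.436). In adults, Nrg2 was higher than at P0 by 2.47 (adjusted p = 0.000813) and Erbb2 by 0.93 (adjusted p = 0.0268).

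Gfra3 (chromosome 18, 34822951 to 34853440, minus strand, GRCm39) encodes the receptor for artemin, which signals through Ret and marks Schwann cell precursors and some sensory neurons. Its mean was highest at E13.5 in the larynx and the trachea. In the larynx it had 8.27 and 8.66 normalized counts at E10.5, 42.9 and 52.9 at E11.5, 82.5 and 59.5 at E13.5, 28.1 and 40.4 at E15.5 and 46.7 and 54.6 at E18.5 in short-code libraries. In index larynx libraries it had 48.0 and 25.3 at E15.5, 29.8 and 32.7 at P0 and 38.6 and 41.3 in adults. In the trachea it had 103 and 90.1 at E13.5, against 7.88 and 13.9 at E10.5. Gfra3 rose by 3.06 in the larynx (SE 0.49, adjusted p = 7.09e-05) and by 3.16 in the trachea (SE 0.47, adjusted p = 0.000105) at E13.5 over E10.5, and these calls held in all 4 leave-one-out fits of each. In the esophagus, 62.0 and 56.9 at E13.5 against 21.6 and 26.4 at E10.5 gave 1.304 (SE 0.43, adjusted p = 0.0545), and 3 alternatives passed the threshold, among them the fit without E15.5 trachea short-code library 1 (adjusted p = 0.036). After E13.5 the change was -0.49, -0.50 and -0.92 in larynx, esophagus and trachea at E18.5, with no call.

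The other GDNF family genes gave 1 other receptor that rose in all 3 tissues at E13.5 over E10.5, Gfra2, by 2.05 in the larynx (adjusted p = 0.000841), 1.73 in the esophagus (adjusted p = 0.00886) and 2.46 in the trachea (adjusted p = 0.000419). In the 9 genes, 3, 2 and 2 were higher in larynx, esophagus and trachea at that step and 0 were lower. Nrtn, which encodes neurturin, had 7.93 and 17.3 normalized counts in the larynx at E13.5 and was listed at 0 in both E10.5 libraries. Artn, the ligand of Gfra3, rose in the trachea by 2.88 at E18.5 over E13.5 (adjusted p = 0.00105). By then Gfra3 was below its E13.5 level in the trachea, with 58.6 and 43.8 normalized counts at E18.5 against 103 and 90.1 at E13.5.

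Cdh19 (chromosome 1, 110815039 to 110905349, minus strand, GRCm39) encodes a cadherin of Schwann cell precursors and later Schwann cells. In the larynx it had 25.98 and 58.9 normalized counts at E10.5, 105 and 86.4 at E11.5, 79.3 and 46.5 at E13.5, 96.2 and 104 at E15.5 and 89.0 and 135 at E18.5 in short-code libraries. Index larynx libraries gave 72.6 and 75.2 at E15.5, 110.3 and 117 at P0, and 488 and 325 in adults. The adult libraries did not overlap with the others. Cdh19 rose by 1.84 in adults over P0 (SE 0.43, adjusted p = 0.0102). The call was lost without adult library 1 (change of 1.518), without P0 library 1 (1.798) and without P0 library 2 (1.878). Each of these fits leaves 1 library in a group, and calls over all genes fell as well. No embryonic step was called for Cdh19, with changes of 0.49 to 1.08.

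Fabp7 (chromosome 10, 57660956 to 57664554, plus strand, GRCm39) encodes the brain lipid-binding protein, a marker of Schwann cell precursors and also of radial glia in the neural tube. It was the only member with a lower mean at E13.5 than at E10.5 in all 3 tissues. In the larynx it had 215 and 211 normalized counts at E13.5, against 2313 and 1974 at E10.5. In the esophagus it had 264 and 150.3 at E13.5, against 1143 and 2155 at E10.5, and in the trachea 260.1 and 257 at E13.5, against 745 and 536 at E10.5. The E13.5 libraries of each tissue lay below its E10.5 libraries, and the changes were -3.33 (SE 1.195, adjusted p = 0.06), -2.99 (SE 1.18, adjusted p = 0.121) and -1.31 (SE 1.12, adjusted p = 0.594) in the 3 tissues, none of them called. The larynx change passed in 6 of the alternatives, with adjusted p of 0.0164 to 0.049, among them the fit without E15.5 trachea short-code library 1 (adjusted p = 0.0455). In adult larynx Fabp7 was at 4.02 and 14.9 normalized counts, against 72.8 and 47.0 at P0 (-2.61, SE 1.36, adjusted p = 0.367).

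Fabp7 moved with genes of the central neural tube. Pax6, a transcription factor of neural progenitors, had 0 to 9.21 normalized counts in the 6 E13.5 libraries, against 192 to 1000 in the 6 E10.5 libraries. Of 15 genes in the list for radial glia and central neural tube, 14 were lower at E13.5 than at E10.5 in the larynx, 8 in the esophagus, 8 in the trachea, with 0 higher in any of them, with median changes of -4.80, -3.74 and -4.01. Replicates at E11.5 were split: in the larynx, library 2 had 2726 normalized counts of Fabp7 and 254 of Pax6, and library 1 had 52.4 and 4.76. In the esophagus at E11.5, library 1 had 1414 of Fabp7 and 84.6 of Pax6, and library 2 had 80.0 and 10.7. E15.5 trachea short-code library 1 had 1741 of Fabp7 and 32.4 of Pax6. In these 3 libraries and all 6 E10.5 libraries Fabp7 was above 500 normalized counts, and in the other 31 it was below 265. Sox10 did not follow, with 30.3 to 85.7 normalized counts at E13.5, against 21.02 to 109 at E10.5. The part of neural tube tissue in the Fabp7 values was not tested.

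**Figure D4:**
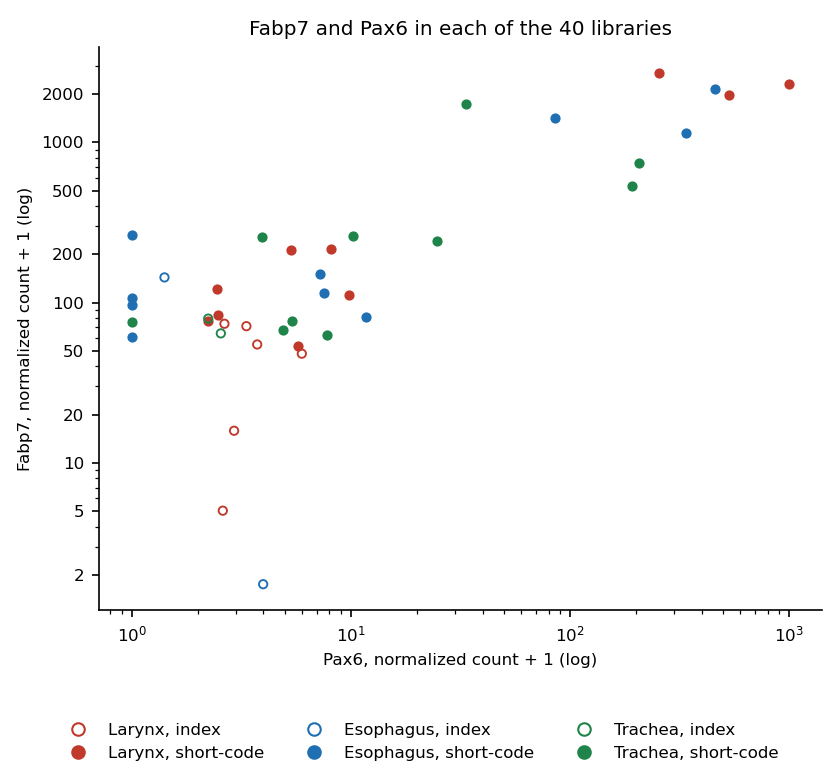
Fabp7 against Pax6, both as normalized count plus 1 on log axes, with 1 point per library. The 9 libraries with the highest Fabp7, all short-code, are the 9 with the highest Pax6: the 6 of E10.5, 1 each of E11.5 larynx and esophagus, and E15.5 trachea short-code library 1.

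Pmp22 (chromosome 11, 63019718 to 63050600, plus strand, GRCm39) encodes peripheral myelin protein 22, a membrane protein of compact myelin that is also made by fibroblasts and epithelia. It was the only member called at both embryonic steps in all 3 tissues. Larynx short-code libraries gave 172 and 213 normalized counts at E10.5, 738 and 721 at E11.5, 1446 and 1245 at E13.5, 3210.0 and 2655 at E15.5, and 4388 and 3236 at E18.5. Index larynx libraries gave 3929 and 3364 at E15.5, 3148 and 3251 at P0 and 2471 and 2572 in adults. Every E13.5 library was above every E10.5 library of its tissue, and every E18.5 library above every E13.5 library. Pmp22 rose at E13.5 over E10.5 by 2.80 in the larynx (SE 0.27, adjusted p = 7.9e-08), 1.65 in the esophagus (SE 0.26, adjusted p = 0.000136) and 1.73 in the trachea (SE 0.26, adjusted p = 0.000106). At E18.5 over E13.5 it rose by 1.502 (SE 0.25, adjusted p = 0.000293), 1.098 (SE 0.25, adjusted p = 0.00446) and 1.29 (SE 0.25, adjusted p = 0.00104) in the same 3 tissues. With only the esophagus libraries in the fit, the esophagus steps had adjusted p of 0.0679 and 0.159, and without E13.5 library 1 or E18.5 library 1 of the esophagus the second had 0.0999 and 0.0707.

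The markers of fibroblasts and perineurium moved at the same steps as Pmp22. Of 12, 6 were higher at E13.5 than at E10.5 in the larynx, and 7 in each of the other tissues, with 0 lower, and their summed level was 12250 to 22120 normalized counts at E10.5, 50760 to 80500 at E13.5 and 123200 to 317300 at E18.5. Dcn, which encodes the matrix proteoglycan decorin, rose by 6.68, 3.92 and 5.00 (adjusted p = 2.06e-11, 5.54e-08 and 2.42e-09). The genes most like Pmp22 over the 20 group means were Tnfrsf23, Slc35f5 and Ehd2 (r = 0.979 to 0.984), with Sox10 at 0.298. In adults over P0 the change of Pmp22 was -0.34 (SE 0.25, adjusted p = 0.631). Whether the embryonic rise came from Schwann cells was not tested.

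Mbp (chromosome 18, 82493207 to 82603763, plus strand, GRCm39) encodes myelin basic protein, which compacts the inner faces of the membrane, and the same locus gives golli transcripts in other cells, which a count per gene does not separate. In larynx short-code libraries it had 340.1 and 300.4 normalized counts at E10.5, 138 and 277 at E11.5, 403 and 485 at E13.5, 465 and 539.8 at E15.5, and 389 and 424 at E18.5. In index larynx libraries it had 363 and 328 at E15.5, 836 and 758 at P0, and 2063 and 2237 in adults. The 3 index ages did not overlap. Mbp rose by 1.21 at P0 over E15.5 (SE 0.27, adjusted p = 0.022) and by 1.43 in adults over P0 (SE 0.27, adjusted p = 0.00185). The first call was lost in each of the 4 leave-one-out fits (adjusted p of 0.1 to 0.368) and with both kinds of library in one E15.5 group (0.91, adjusted p = 0.173), and the second held in all 4 of its leave-one-out fits. In embryos Mbp rose in the trachea by 0.90 at E13.5 over E10.5 (SE 0.27, adjusted p = 0.0328), a call lost in each of its 4 leave-one-out fits (adjusted p of 0.117 to 0.181), and in the esophagus by 1.22 at E18.5 over E13.5 (SE 0.27, adjusted p = 0.0036), lost without E13.5 library 2 (adjusted p = 0.0656) or E18.5 library 2 (adjusted p = 0.0695) and with only esophagus libraries in the fit (adjusted p = 0.126). At the trachea step, 6 of 10 markers of T cells and thymus were also higher and 0 lower, and their part in the Mbp value was not tested.

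Mag (chromosome 7, 30598464 to 30614474, minus strand, GRCm39) encodes myelin-associated glycoprotein of the membrane facing the axon, and it was near the limit of detection before birth. Index larynx libraries held 25 and 1 rounded counts at E15.5, 81 and 62 at P0 and 60 and 73 in adults, which is 14.6 and 0.549, 44.7 and 44.1, and 48.3 and 47.1 normalized counts. The P0 and adult libraries lay close together and above both E15.5 libraries, and the change at P0 over E15.5 was 2.55 (SE 0.77, adjusted p = 0.0848). With only larynx libraries in the fit it passed (2.55, adjusted p = 0.0243). In the 30 short-code libraries Mag ranged from 0 to 64.9 normalized counts, with 1 library at 0 (the E13.5 trachea library 2, where 3 counts is the limit a count of 0 allows). The highest was E15.5 trachea short-code library 1, with 64.9 against 7.92 in library 2, and the second highest was library 2 of the E11.5 larynx, at 22.9. Both also held high Fabp7. No step was called for Mag.

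Prx (chromosome 7, 27196813 to 27219639, plus strand, GRCm39) encodes periaxin, which links the outer Schwann cell membrane to the basal lamina. It had 164 and 152 normalized counts in the larynx at E10.5, 219 and 146 at E11.5, 145.2 and 144.9 at E13.5, 225 and 222 at E15.5 and 258 and 283 at E18.5 in short-code libraries, and 330 and 361 at E15.5, 527 and 474 at P0 and 633 and 513 in adults in index libraries. P0 and adult libraries overlapped, and no step in age was called. The change was 0.90 at E18.5 over E13.5 in the larynx (SE 0.32, adjusted p = 0.0858), which passed with only the larynx libraries in the fit (adjusted p = 0.00904) and with DESeq2 (adjusted p = 0.035).

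**Figure D5:**
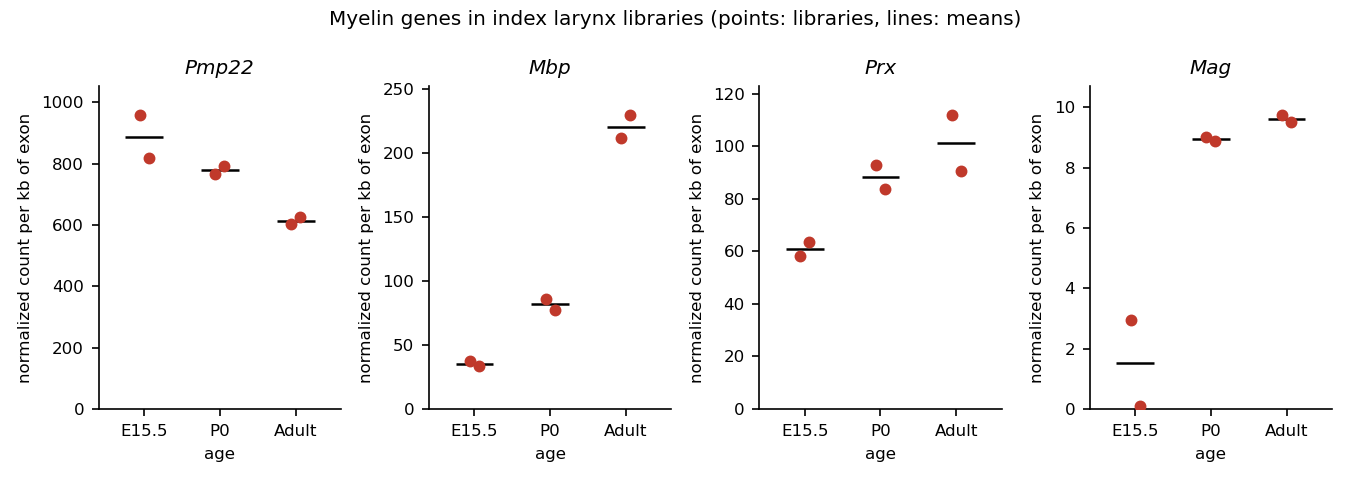
Normalized count per kb of exon of Pmp22, Mbp, Prx and Mag in the 6 index larynx libraries, with 1 point per library and a line at the mean of 2, on axes from 0 with their own scales. Mbp has means of 35.5 per kb at E15.5, 81.8 at P0 and 221 in adults, and Mag has 1.53, 8.95 and 9.62 at the same 3 ages.

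Set per kb of exon, the order of the 8 genes in the larynx changed with age. In index libraries of E15.5 it was Pmp22 at 889 ± 97.4, Erbb3 at 256 ± 68.3, Prx at 60.9 ± 3.93, Fabp7 at 48.5 ± 9.11, Mbp at 35.5 ± 2.53, Gfra3 at 18.3 ± 8.06, Cdh19 at 13.53 ± 0.335 and Mag at 1.53 ± 2.01 normalized counts per kb (SD, n = 2). At P0 Prx stood at 88.3 ± 6.55 and Mbp at 81.8 ± 5.69. In adults the order was Pmp22 at 615 ± 17.3, Erbb3 at 508 ± 38.3, Mbp at 221 ± 12.6, Prx at 101 ± 15.0, Cdh19 at 74.4 ± 21.1, Gfra3 at 20.0 ± 0.955, Mag at 9.62 ± 0.164 and Fabp7 at 7.38 ± 5.99. By this measure Mbp stood below Prx at E15.5 and above it in adults. The length used was the union of all annotated exons, 9745 bases for Mbp and 5669 for Prx. The order between genes depends on that choice. Before division by length the E15.5 means were 345.6 normalized counts for Mbp and 345.4 for Prx. Neighbours whose means lay within their spread were Gfra3 and Cdh19 at E15.5, Prx and Mbp at P0, and Prx and Cdh19, and Mag and Fabp7, in adults. At E15.5 the ranges of 1 SD of Prx and Fabp7 also met.

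Among the wider peripheral myelin genes, more were called higher than lower at every step in age. Of 20 genes, which include Pmp22, Mbp, Mag and Prx, 6 were higher at P0 than at E15.5 and 0 lower, with a median log2 change of 1.19 against 0.04 over all expressed genes. Without the members it was 5 of 16. Dusp15, a phosphatase of myelinating glia, rose at P0 over E15.5 by 3.31 (adjusted p = 0.00156), Gldn (gliomedin, of the node) by 3.76 (adjusted p = 0.0443) and Cldn19, a claudin of the Schwann cell seams, by 3.62 (adjusted p = 0.022). Pmp2, the myelin fatty acid-binding protein, had 21.5 and 22.8 normalized counts at P0 and was listed at 0 in both E15.5 libraries. In adults against P0, 4 of 20 were higher and 0 lower (median 0.24 against 0.03), and beside Mbp these were Gldn by 2.69 (adjusted p = 0.0163), Mal by 2.37 (adjusted p = 0.0118) and Cd9 by 1.31 (adjusted p = 0.0273). Mal and Cd9 are also epithelial genes, and Mal reached 12630 and 17990 normalized counts in adults.

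Before birth the same list gave 7 of 20 higher and 2 lower in the larynx at E13.5 over E10.5, 6 higher and 1 lower in the esophagus, and 7 higher and 0 lower in the trachea. At E18.5 over E13.5 it gave 8, 5 and 8 higher in the 3 tissues and 0 lower. The claudin-19 gene was the one most like Mag over the 20 group means (r = 0.892), followed by Slfn4 and Selp. Mag had r = 0.521 with Sox10. Genes most like Mbp were Slc22a5, Chp1 and Dusp1 (r = 0.931 to 0.942), those most like Prx were Prg4, Gtpbp2 and Rell1 (0.916 to 0.919), those most like Cdh19 were Tnfaip3, Gfod1 and Ccl28 (0.888 to 0.899), those most like Gfra3 were Npy1r, Phex and Olfml3 (0.815 to 0.823) and those most like Fabp7 were Mtcl3, Kif5c and Mapk8ip2 (0.961 to 0.970).

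Of 15 regulators of the lineage, 8 were called in the larynx at E13.5 over E10.5 (8.29% of all genes higher, 7.18% lower). At P0 over E15.5 it was 0 of 15 (1.28% of all genes higher, 0.493% lower). With so few genes called at that step, this 0 says little about the regulators. In index larynx libraries Sox10 had 199 and 82.9 normalized counts at E15.5, 204 and 161 at P0 and 152 and 189 in adults, and the change at P0 over E15.5 was 0.38 (SE 0.48, adjusted p = 0.862). Egr2, the switch of myelination, was at 46.3 and 58.4 at P0 against 34.0 and 29.6 at E15.5 (0.71, SE 0.52, adjusted p = 0.633). In adults 3 were higher than at P0. The 8 called in the larynx at E13.5 over E10.5 were 3 higher and 5 lower. Adgrg6, an adhesion receptor that drives myelination, rose by 4.37 (adjusted p = 4.17e-05), while Pou3f1 and Pou3f2, POU factors of the lineage that are also neural tube genes, fell by 4.29 and 5.92 (adjusted p = 0.000127 and 0.00107). Pou3f1 then rose by 2.87 at E18.5 over E13.5 (adjusted p = 0.0204).

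In the list of precursor and immature Schwann genes, S100b, a calcium-binding protein of Schwann cells and cartilage, rose at both embryonic steps in all 3 tissues. In the larynx it rose by 2.94 at E13.5 over E10.5 (adjusted p = 0.0064) and by 3.41 at E18.5 over E13.5 (adjusted p = 6.22e-05), with 254 and 247 normalized counts at E18.5, against 22.2 and 24.9 at E13.5. Dhh, the Schwann cell hedgehog ligand, rose by 2.89 in the larynx at E13.5 over E10.5 (adjusted p = 0.02). In adults against P0, Gap43 fell by 2.79 (adjusted p = 0.0115) and Ncam1 by 2.47 (adjusted p = 0.0111), both of them adhesion or growth proteins of immature and non-myelinating Schwann cells and of axons, while Cdh19 and Erbb3 of the same list rose. Ednrb, the endothelin receptor of the crest lineage, fell by 1.499 (adjusted p = 0.0293).

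Markers of other cell types moved at the same steps. Of 17 genes of peripheral neurons and axons, 0 were higher in any step in age, where 1.28% to 8.29% of all genes were higher. In the larynx 4 were lower at E13.5 than at E10.5 (7.18% of all genes lower) and 1 at E18.5 than at E13.5 (3.52%). In index larynx libraries 1 was lower at P0 than at E15.5 (0.493%) and 1 in adults than at P0 (2.57%). At such shares, 0 or 1 of 17 says little about neurons. The same shares are the background for the other lists at these steps. The neuronal tubulin Tubb3 had 109 and 61.2 normalized counts at P0, against 724 and 67.5 at E15.5 in index larynx libraries. Of 10 oligodendrocyte genes, 0 were called in the larynx at P0 over E15.5 (1.28% of all genes higher, 0.493% lower). In adults over P0 it was again 0 (3.44% higher, 2.57% lower). At such shares, 0 of 10 says little about oligodendrocytes. The summed level of the oligodendrocyte genes in index larynx libraries was 93.3 and 112 normalized counts at E15.5, 194 and 212 at P0 and 333 and 336 in adults. Tmem125 of this list had 1731 normalized counts in index library 2 of the E15.5 esophagus, beside 82300 of the keratin gene Krt5. Which cells gave the sum was not tested. Of 10 skeletal muscle genes, 9 were higher in the larynx at E13.5 than at E10.5 and 10 at E18.5 than at E13.5, with medians of 4.90 and 6.26. In esophagus 9 and 6 of them were higher at these steps, in trachea 6 and 7, and 0 were lower in any of the 3 tissues. In index larynx libraries 0 were called at P0 over E15.5 and 4 were lower in adults than at P0. Their part in the members' values was not tested.

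Of 16 genes of the node and of axon-glia contact, 0 were higher and 7 lower in the larynx at E13.5 than at E10.5, among them the axonal contactin-2 gene Cntn2 (-5.29, adjusted p = 0.00249), and 2 were higher at P0 than at E15.5, Gldn and the potassium channel gene Kcna1 (2.86, adjusted p = 0.0177). Of 10 genes of non-myelinating and repair Schwann cells, 2 were higher in the larynx at E13.5 than at E10.5, and 2 were lower in adults than at P0, Gap43 and Ncam1. Of 13 genes of enteric glia and neurons, 4 were higher and 2 lower in the larynx at E18.5 than at E13.5, with Nos1 higher by 5.43 (adjusted p = 4.15e-06). Of 9 melanocyte genes, which share the crest origin of Schwann cells, 1 was higher and 3 lower in the larynx at E13.5 than at E10.5, and 2 were higher in adults than at P0, Tyrp1 by 3.04 (adjusted p = 0.0118) and Oca2 by 5.91 (adjusted p = 0.000278).

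Between tissues, no member was called. Averaged over the 5 embryonic ages of the short-code libraries, edgeR called 0 of 8 for esophagus over trachea (0.0932% of genes higher and 0.115% lower), 0 of 8 for larynx over esophagus (0.00274% and 0.0493%) and 0 of 8 for larynx over trachea (0.0192% and 0.162%), with 1, 2 and 1 members at an unadjusted p under 0.05, and DESeq2 also called 0 in each. Pmp22 was -0.35 (SE 0.11, adjusted p = 0.677) and Erbb3 -0.41 (SE 0.15, adjusted p = 0.818) for larynx over esophagus. Without E15.5 trachea short-code library 1 the counts were again 0. The course over age did not differ between tissues by the test of interaction for any member, 0 of 8 (1.37% of genes were called), with 5 members at an unadjusted p under 0.05, among them Gfra3 with adjusted p = 0.12 and Fabp7 with 0.195. Fabp7 was called without library 1 of the E11.5 larynx (adjusted p = 0.0355), Gfra3 without library 2 of the E15.5 trachea (adjusted p = 0.0304) and Pmp22 without library 2 of the E11.5 esophagus (adjusted p = 0.0311).

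Between the kinds of library 1 member was called at E15.5, where both kinds exist. Over the 3 tissues, 0 of 8 were higher in index than in short-code libraries (10.8% of genes higher) and 1 was lower (16.5% lower), which was Cdh19. It had 72.6 and 75.2 normalized counts in index and 96.2 and 104 in short-code libraries of the larynx, 71.0 and 71.0 against 149 and 90.3 in the trachea, and 115 and 26.1 against 146 and 159 in the esophagus. The difference was -0.76 (SE 0.25, adjusted p = 0.0265), and -0.62 with an adjusted p of 0.105 without short-code library 1 of the trachea. Over the 12 leave-one-out fits the Cdh19 difference ran from -1.24 to -0.53, and the call was lost in 7. For Fabp7 it was -1.63 (SE 0.68, adjusted p = 0.0783), where index library 2 of the esophagus held 1 count. Without index library 1 of the esophagus it was -3.77 (adjusted p = 0.00207), and without E15.5 trachea short-code library 1 it was -0.95, with no call, and 2 of 12 leave-one-out fits called it. Prx was called higher in index libraries only without index library 2 of the esophagus (0.51, adjusted p = 0.00417). The adult libraries, where Cdh19 was highest, are index libraries.

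With a natural spline over age rank in place of steps, called at an adjusted p of at most 0.01, 7 of 8 members varied over the embryonic ages of the 3 tissues (36.9% of genes did), Pmp22 with the smallest adjusted p, 6.49e-16, and Mag the exception (adjusted p = 0.0684). In the larynx with P0 and adults, 7 of 8 varied (29.6% of genes), all but Gfra3 (adjusted p = 0.0139). In the esophagus 3 of 8 did (8.14%), Erbb3, Mbp and Pmp22, with Fabp7 also called without index library 2 of E15.5 (adjusted p = 0.00498), and in the trachea 2 of 8 (13.54%), Mbp and Pmp22. Without E15.5 trachea short-code library 1, Erbb3 was also called in the trachea (adjusted p = 0.00407, against 0.0179 with it). The splines had no term for the kind of library. In the larynx fit, age and kind therefore cannot be told apart between E18.5 and P0. With short-code larynx libraries only, which end at E18.5, 2 of 8 were called in the larynx. Mbp, Mag, Prx, Cdh19, Erbb3 and Fabp7 were not (adjusted p of 0.0134 to 0.403). Over all genes, that fit called 4139, against 9640 with both kinds of library.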

How the data were processed

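Gene-level expected counts were deposited by the authors in 2 tables, made with RSEM 1.3.3 on Bowtie2 2.4.2 alignments to GRCm39 after FastQC 011.5, per the submitters' processing notes. RSEM divides reads that fit several genes, so genes with near copies are uncertain. All 40 value columns matched a library, 0 were left unmapped, and 0 pairs of libraries were identical. Of 53647 IDs, 52610 matched a GENCODE M39 symbol. Expected counts were rounded and scaled with median-ratio size factors. Genes were kept where 2 or more libraries reached a normalized count of 1. Means of the 20 groups were fitted together in edgeR 4.0.16 (R 4.3.3) by the quasi-likelihood test, with its default dispersion, and adjusted p under 0.05 was called, or at most 0.01 for splines over age rank (3 degrees of freedom, fitted to the libraries concerned). The study's own course over age used another package, in whose place the spline stands. DESeq2 1.42.0 was an alternative, beside TMM scaling, no filter, a replicate block, fits within a tissue and fits without single libraries. Leaving out 1 library of a step in age leaves 1 in its group, and fewer genes were then called in all at every step. The p-values measure the spread between libraries, which were pools at the embryonic ages. Where a count is 0, 3 counts is the limit given, for counting error only. Groups said to lie apart or not to overlap had 2 libraries each. The share of all genes that separate in this way was not counted.

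The members and the 16 gene lists were chosen with earlier results of these data known. Genes outside the members were named from these lists, among the up to 4 of largest change that passed the test in a comparison, or as defining markers or where a library or count turned on them, and the 3 genes most like each member were taken by Pearson r of log2 group means, among genes whose mean reached 50 normalized counts in some group. Scripts were tested on simulated data. Some items of the gene lists are not reported here.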

Additional observations from a re-analysis of the deposited data

Results flagged for a closer look

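At E15.5 each tissue had 4 libraries, 2 of each kind, which gives 24 sets of 4 values for the 8 genes. In 4 of them the highest or lowest library stood apart from the other 3, by a gap over Dixon's critical share of the whole range. Chance alone gives this in about 1 in 20 independent sets of 1 kind. Here the 8 genes share libraries and each set mixes 2 kinds, so that rate cannot be set against 4 of 24. In E15.5 trachea short-code library 1, 3 members were far above the others. Fabp7 was at 1741 normalized counts, against 63.2 to 241 in the other 3 libraries, Mag at 64.9 against 7.92 to 10.3, and Mbp at 830.5 against 504 to 557. The same library held high Tubb3 and Olig1 and little Epcam. In the E15.5 larynx, Erbb3 was at 1312 normalized counts in index library 2, against 1822 to 1921 in the other 3 libraries. The causes were not tested.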

How the results depend on the processing

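No result changed direction past the threshold under any alternative. Of 8 members, 1 was called for index over short-code libraries at E15.5, and 0 with TMM scaling, 0 with a replicate block, 0 without E15.5 trachea short-code library 1, and 2 without the 3 libraries rich in olfactory receptor counts, 2 without library 1 of the E11.5 larynx and 2 with DESeq2. The replicate block changed no other count of members by over 1.5 times. Same-numbered libraries did not deviate together: r was over 0.1 in 18 of 105 pairs of short-code groups (median 0.0048) and 2 of 10 pairs of index groups, so the numbers were not taken to pair the libraries. With only the tissue's own libraries, 0 members were called in both esophagus steps and 2 at P0 over E15.5. With both kinds of library in one E15.5 group, 0 were called at P0 over E15.5. Without the 3 olfactory-rich libraries, 4 were called in the esophagus at E13.5 over E10.5 and 1 for tissue by age, which also had 1 without library 1 of the E11.5 larynx. DESeq2 called 2 in the trachea at E18.5 over E13.5. The larynx spline called 2 with short-code libraries only. Leaving out single libraries gave 0 to 2 members for index over short-code, 1 to 2 in the esophagus at E13.5 over E10.5, 1 at E18.5 over E13.5, 1 to 2 in adult larynx over P0, 1 to 2 in the larynx at E18.5 over E13.5, 0 at P0 over E15.5, 1 to 4 for the esophagus spline and 0 to 1 for tissue by age. Counts of all genes moved most for P0 over E15.5, with 646 called, 1620 with DESeq2, 3300 with larynx libraries only, 26 with both kinds in one group, and 0 to 87 without a single library. The esophagus steps had 3327 and 4021 genes called, and 256 and 407 with esophagus libraries only. The tissue contrasts had 76, 19 and 66 genes (esophagus over trachea, larynx over esophagus, larynx over trachea), and 316, 151 and 384 with DESeq2. Tissue by age had 499 genes, 770 with no filter and 1420 without library 1 of the E11.5 larynx. The esophagus spline had 2309 and 5157 with short-code libraries only, and the larynx spline 9640 and 4139. The causes were not tested. DESeq2 was not run for splines or tissue by age. The depth limits Mag most, with down to 0 normalized counts, and Fabp7, with 1 count in index library 2 of the E15.5 esophagus.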
